A study of Danio rerio with 4 samples.

Results

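The Hox genes of zebrafish (Danio rerio) were followed by paralog group and by cluster in neural crest cells sorted at 20 hours post fertilization (hpf). They were taken as every gene in the deposited table whose name is hox, a letter from a to d, a number and a final a or b. The pattern found 48 genes among 26267, with 91 transcripts, in 13 paralog groups and 7 clusters. Bulk RNA sequencing was done on cells that carry the sox10:DsRed reporter, a red fluorescent protein under the regulatory DNA of the crest gene sox10. The cells came from nr2f mutant embryos (2 samples) and wild-type embryos (2 samples), named as biological replicates. The titles of the mutant samples name nr2f2 and nr2f5, while their genotype field gives nr2f2 as unknown beside a mutant nr2f5. Cells of several embryos went into each sample: 88 and 35 embryos in the mutant pools, 110 and 120 in the wild-type pools, and the labels tie none of these numbers to a replicate. Values are transcript abundances in TPM, which are scaled to the same total in every sample, correct for transcript length and can be compared between genes. Read depth cannot be had from TPM and is unknown, so no counting interval is given. In pools of sorted cells, fewer cells that express a gene and less RNA per cell cannot be told apart.

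Hox proteins are homeodomain transcription factors that give cells their position along the body axis. Their genes lie in clusters, and their order in a cluster follows the order of their expression domains from the hindbrain (low paralog numbers) to the tail (high numbers). Genes with the same number in different clusters descend from 1 ancestral gene and form a paralog group. Crest cells that fill the first pharyngeal arch carry no Hox code, those of the second arch depend on Hox genes of group 2, and crest of the posterior arches expresses groups 3 and 4. A lower-case pair such as ba names a zebrafish cluster, here hoxb genes whose names end in a.

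The name and the gene ID disagreed for 1 of the 48 genes. The gene ID of the hoxa4a row, ENSDARG00000103862, carries the symbol HOXA3 in the table of gene names used here, and hoxa3a is the 1 RefSeq Hox symbol of this pattern (assembly GRCz12tu) that the deposited table lacks. All 48 names of the table matched a RefSeq symbol, and the hoxa3a and hoxa4a loci overlap in that assembly. The hoxa4a row, with 11 transcripts, may therefore hold RNA of hoxa3a, and its place in group 4 or group 3 is uncertain. In 4 other genes (hoxb1b, hoxb5b, hoxb6b and hoxb8b) transcripts under 2 gene IDs were summed, and reads could be split between such copies.

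RNA of all 13 paralog groups was present in every sample. In bulk pools the cells that held it cannot be told. The summed TPM of the 48 genes was 708 and 523 in the mutant samples, against 623 and 459 in the wild-type samples. The ranges overlapped, and replicates differed by more than the genotype means did (615 ± 131 in mutant and 541 ± 116 in wild-type samples, SD, n = 2 each). A level of 10 TPM was reached by 16 and 13 Hox genes in mutant samples and by 13 and 10 in wild-type samples, and a level of 1 TPM by 43 and 37 in mutant samples and by 43 and 39 in wild-type samples. Most members were therefore detected at a low level. Over the 4 samples the 5 genes with the highest mean were hoxa4a, hoxb3a, hoxc3a, hoxb7a and hoxa2b. Together they made up 53.1% and 57.9% of the Hox TPM in the mutant samples, against 54.1% and 52.2% in the wild-type samples. On the log2(TPM + 1) scale Pearson's r over the 48 genes was 0.949 for the mutant pair, 0.935 for the wild-type pair and 0.922 to 0.964 for pairs of different genotype. Genes in a sample share its library and are not replicates. The values between genotypes thus spanned those between replicates.

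**Figure D1:**
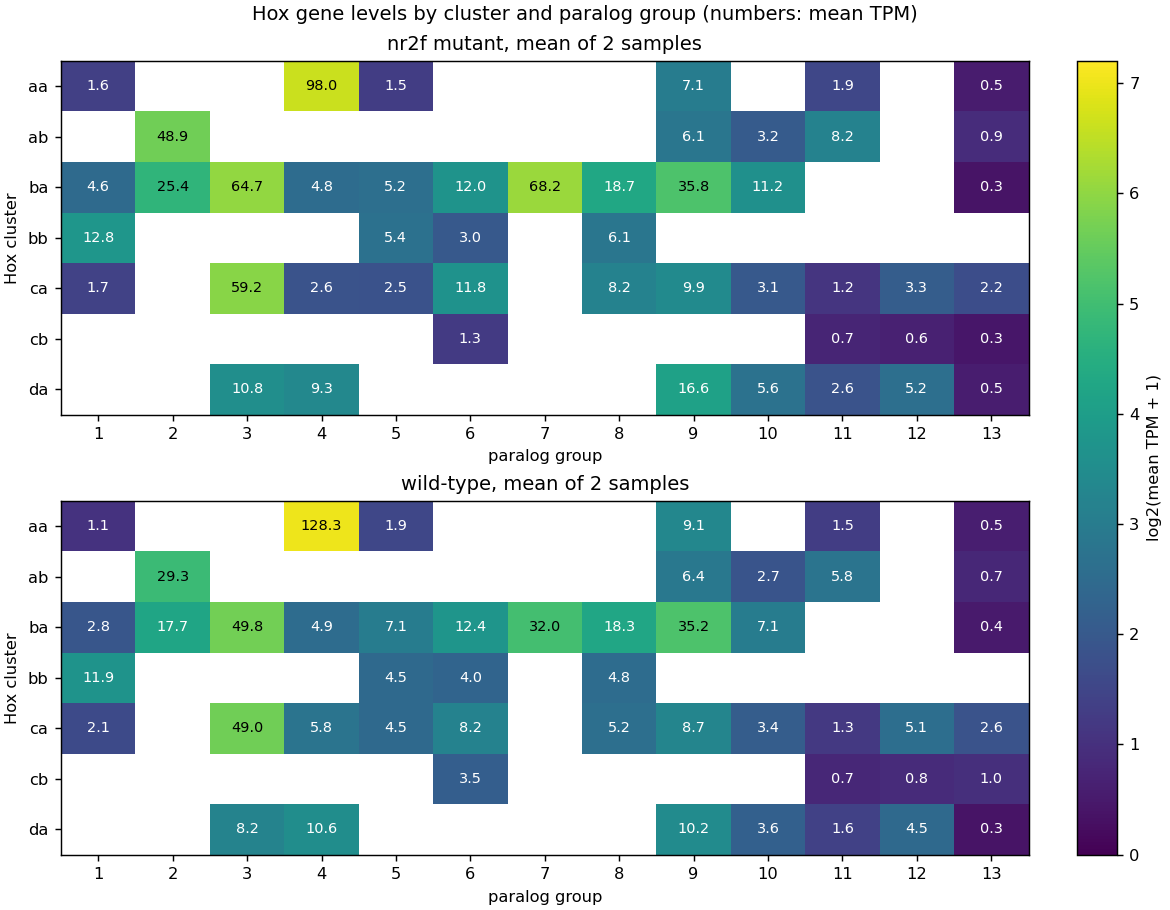
Mean TPM of the 48 Hox genes (number in each cell, colour on a log2 scale) by cluster (rows) and paralog group (columns), in nr2f mutant samples (top, n = 2) and wild-type samples (bottom, n = 2). White cells hold no gene of the pattern, and the highest cell in both panels is the hoxa4a row, at 98.0 TPM in mutant and 128 TPM in wild-type samples.

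The mutation was visible in the libraries: nr2f5 stood at 46.5 and 47.1 TPM in mutant samples, against 579 and 559 TPM in wild-type samples (log2 fold change -3.58 ± 0.12, adjusted p = 1.1e-06). The other gene named in the titles, nr2f2, stood at 67.2 and 51.7 TPM in mutant samples, against 73.5 and 59.3 TPM in wild-type samples, and did not pass (adjusted p = 0.67). All 12 neural crest markers listed were above 0 in every sample. Of these markers 3 were called higher and 3 lower in mutant samples, where 1.13% and 2.95% of all genes tested were called. The crest reporter gene sox10 stood at 590 and 461 TPM in mutant samples, against 411 and 318 TPM in wild-type samples (adjusted p = 0.10). Among those called, crestin rose to 305 and 314 TPM in mutant samples, against 187 and 145 TPM in wild-type samples, while twist1a fell to 498 and 469 TPM in mutant samples, against 847 and 1005 TPM in wild-type samples. The other called markers were inka1a and foxd3, which rose, and snai2 and sox9a, which fell. Markers of other cells were also present. Summed TPM of 12 skeletal muscle and somite markers was 239 and 103 in mutant samples, against 690 and 2052 in wild-type samples. That of 8 epidermis markers was 518 and 388 in mutant samples, against 503 and 2806 in wild-type samples. For 17 markers of the central nervous system the sum was 517 and 325 TPM in mutant samples, against 449 and 313 TPM in wild-type samples. The sum of 11 otic markers was 139 and 171 TPM in mutant samples, against 216 and 242 TPM in wild-type samples. Smaller sums were those of 8 endothelial markers (23.7 and 16.8 TPM in mutant, 62.6 and 41.0 TPM in wild-type samples) and 8 endoderm markers (13.6 and 5.05 TPM in mutant, 17.2 and 10.4 TPM in wild-type samples). Of the 8 otic markers tested, 4 (oc90, otomp, pax8 and atoh1a) lay higher and 3 lower in both mutant samples. Over all genes tested, 18.2% lay higher and 34.9% lower in both. The lower otic sum in mutant samples thus was not shared by the 4 higher markers, and it includes dlx3b. That gene fell to 17.2 and 27.6 TPM in mutant samples, against 75.5 and 127 TPM in wild-type samples.

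A mean of at least 1 TPM was required for the test, and 41 of the 48 Hox genes met it. They were tested with limma on log2(TPM + 1) in 1 fit of all 14217 genes that did so. A call needed an adjusted p (Benjamini-Hochberg over all genes) under 0.05. None of the 41 Hox genes was called: 0 were higher and 0 lower, where 4.08% of all genes tested were called (1.13% higher and 2.95% lower in mutant samples). An unadjusted p under 0.05 was reached by 3 Hox genes (hoxa2b, hoxa4a and hoxc4a), or 7.32%, where 20.4% of all genes reached it. Limma without trend and robust called 0 of all genes, Hox genes included, and put 2 Hox genes and 17.8% of all genes at an unadjusted p under 0.05. The smallest adjusted p was that of hoxa2b, 0.080. A p over the threshold does not show that the levels were alike. The 95% interval of the log2 fold change lay inside -1 to 1, a 2-fold difference either way, for 11 of the 41 genes and reached past it for 30.

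The log2 fold changes (nr2f mutant over wild-type) of the 41 genes ran from -1.08 (hoxc6b) to 1.16 (hoxb7a), with 24 above 0 and 17 below. Their median was 0.10, beside -0.16 over all genes tested. With median-ratio scaling, in which the median over all genes was -0.03, the median of the Hox genes was 0.24, with 28 above 0 and 13 below. Both mutant samples lay above both wild-type samples for 11 Hox genes, or 26.8%, where 18.2% of all genes did so. They lay below both for 7 Hox genes, or 17.1%, where 34.9% of all genes did so. The median rested on single libraries: leaving out the mutant replicates 1 and 2 in turn gave -0.22 and 0.37, and leaving out the wild-type replicates 1 and 2 gave 0.23 and -0.0024. In the same order, the median over all genes tested was -0.20, -0.11, -0.08 and -0.24. The Hox median lay below it without mutant replicate 1 and above it in the other fits.

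**Figure D2:**
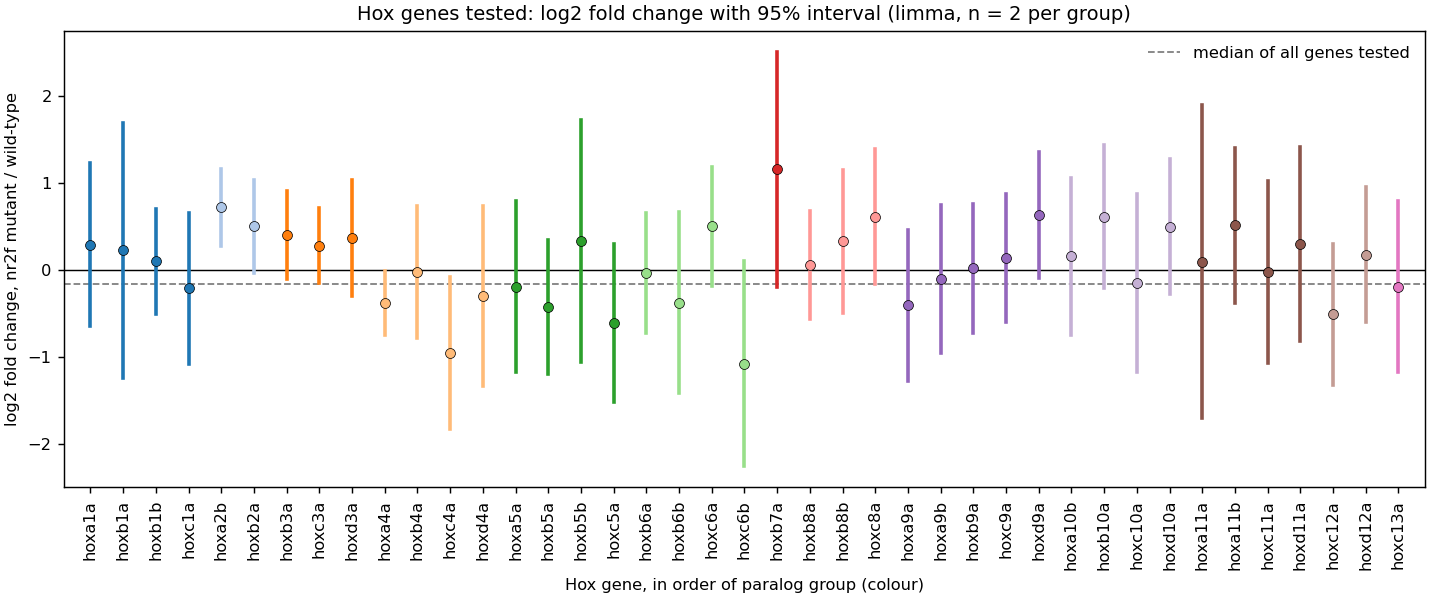
Log2 fold change (nr2f mutant over wild-type, y axis) of the 41 Hox genes tested, in order of paralog group (x axis, colour), with 95% intervals from limma (n = 2 samples per group); the dashed line is the median of all genes tested, -0.16. The intervals of hoxa2b, hoxa4a and hoxc4a stay on 1 side of 0, and none of these genes passed the adjusted threshold.

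Group 1 genes are the first Hox genes to be switched on and pattern the hindbrain around rhombomere 4, the source of second-arch crest. The leading gene was hoxb1b, an early activator of the hindbrain code, at 12.9 and 12.6 TPM in mutant samples and 12.2 and 11.5 TPM in wild-type samples (log2 fold change 0.10 ± 0.27, SE, adjusted p = 0.86). Its 4 values were close together, with those of the mutant samples just above the others. The rhombomere 4 gene hoxb1a stood at 8.05 and 1.14 TPM in mutant samples, against 3.43 and 2.21 TPM in wild-type samples. The mutant replicates of hoxb1a lay on either side of both wild-type values, and the sign of its fold change (0.22) turned without mutant replicate 1 (-0.82) or wild-type replicate 2 (-0.01). The 2 lowest members were hoxa1a, at 1.39 and 1.74 TPM in mutant samples, against 1.22 and 0.963 TPM in wild-type samples, and hoxc1a, at 1.53 and 1.78 TPM in mutant samples, against 2.02 and 2.14 TPM in wild-type samples. The groups did not overlap for either, but the differences were under 1 TPM and neither passed (adjusted p = 0.72 and 0.79).

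Group 2 held the nearest approach to a call among the Hox genes. The gene hoxa2b, which gives second-arch crest its identity and acts there with hoxb2a in zebrafish, stood at 51.5 and 46.2 TPM in mutant samples, against 30.6 and 28.0 TPM in wild-type samples. Both mutant values lay above both wild-type values, and the gap between the groups was wider than that between replicates. Means were 48.9 ± 3.75 TPM in mutant and 29.3 ± 1.83 TPM in wild-type samples (SD, n = 2 each), and the log2 fold change was 0.72 ± 0.20 (95% interval 0.28 to 1.16, adjusted p = 0.080). It passed with median-ratio scaling (0.87, adjusted p = 0.022) and with quantile normalization (0.84, adjusted p = 0.038), and under none of the other 11 alternatives (adjusted p = 0.064 to 0.27). Its partner hoxb2a stood at 26.9 and 23.9 TPM in mutant samples, against 16.7 and 18.7 TPM in wild-type samples (log2 fold change 0.50 ± 0.24, 95% interval -0.03 to 1.03, adjusted p = 0.27). Again the groups did not overlap, and hoxb2a passed under none of the 13 alternatives (adjusted p = 0.13 to 0.59). Each of these genes has 1 transcript and 1 gene ID in the table, so no sum over isoforms enters its value.

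Group 3 genes mark rhombomeres 5 and 6 and the crest of the third arch. The highest was hoxb3a, at 69.4 and 60.0 TPM in mutant samples and 61.0 and 38.6 TPM in wild-type samples, followed by hoxc3a, at 62.2 and 56.3 TPM in mutant samples and 55.8 and 42.2 TPM in wild-type samples. The gene hoxd3a was lower, at 10.9 and 10.7 TPM in mutant samples, against 9.37 and 7.10 TPM in wild-type samples. The groups overlapped for hoxb3a and not for hoxc3a or hoxd3a, where the lower mutant value lay just above the higher wild-type value. All 3 log2 fold changes were above 0 (0.40 ± 0.23, 0.28 ± 0.20 and 0.36 ± 0.30) and none passed (adjusted p = 0.35, 0.44 and 0.52). Their size rested on the wild-type samples: without wild-type replicate 1 they were 0.73, 0.48 and 0.54, and without wild-type replicate 2 they were 0.080, 0.082 and 0.18. Within both groups, hoxb3a and hoxc3a did not differ from each other beyond the spread of the samples.

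Group 4 genes mark the caudal hindbrain and posterior arches, and all 4 fold changes were below 0 as deposited. The hoxa4a row, the highest Hox row in every sample, stood at 106 and 90.2 TPM in mutant samples, against 144 and 113 TPM in wild-type samples (log2 fold change -0.38 ± 0.17, 95% interval -0.75 to -0.01, adjusted p = 0.24). The gene hoxc4a stood at 3.57 and 1.66 TPM in mutant samples, against 5.64 and 5.91 TPM in wild-type samples (log2 fold change -0.96 ± 0.39, adjusted p = 0.20). For both, each mutant value lay below each wild-type value. The values of hoxd4a overlapped, at 13.8 and 4.71 TPM in mutant samples and 13.3 and 8.01 TPM in wild-type samples. The gene hoxb4a stood at 4.18 and 5.42 TPM in mutant samples and 4.78 and 4.96 TPM in wild-type samples, with a fold change (-0.02) whose sign turned with median-ratio scaling and quantile normalization.

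Inside the hoxa4a row the transcripts did not share a direction. A test of each transcript, added after these values were seen and adjusted over 20835 transcripts, called 1 of the 62 Hox transcripts tested lower and 0 higher. Over all transcripts, 2.52% were called, 1.56% lower and 0.965% higher. The called transcript, ENSDART00000163611, fell to 21.9 and 20.7 TPM in mutant samples, against 50.8 and 48.7 TPM in wild-type samples (log2 fold change -1.19 ± 0.18, adjusted p = 0.027). The call was lost when any 1 of the 4 samples was left out (adjusted p = 0.14 to 0.25), with no filter on low values (0.19) and without trend and robust (0.11). A second transcript, ENSDART00000161019, stood at 18.0 and 12.2 TPM in mutant samples, against 38.5 and 27.5 TPM in wild-type samples (log2 fold change -1.08 ± 0.28, adjusted p = 0.11). The transcript ENSDART00000170662 lay the other way, at 17.0 and 17.1 TPM in mutant samples, against 7.54 and 3.04 TPM in wild-type samples (log2 fold change 1.62 ± 0.40, adjusted p = 0.095).

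The make-up of the row differed accordingly. ENSDART00000163611 and ENSDART00000161019 together held 37.6% and 36.5% of the row in mutant samples, against 62.0% and 67.7% in wild-type samples. ENSDART00000170662 and ENSDART00000164968 together held 22.0% and 25.1% in mutant samples, against 7.88% and 5.20% in wild-type samples. Neither pair of shares overlapped between the groups, and both pairs of transcripts were chosen after their values were seen. The files do not say which of these transcripts belong to hoxa3a and which to hoxa4a, and short reads from shared exons leave the split between isoforms less certain than the sum. The summed row hides these opposite differences, since its own log2 fold change was -0.38.

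**Figure D3:**
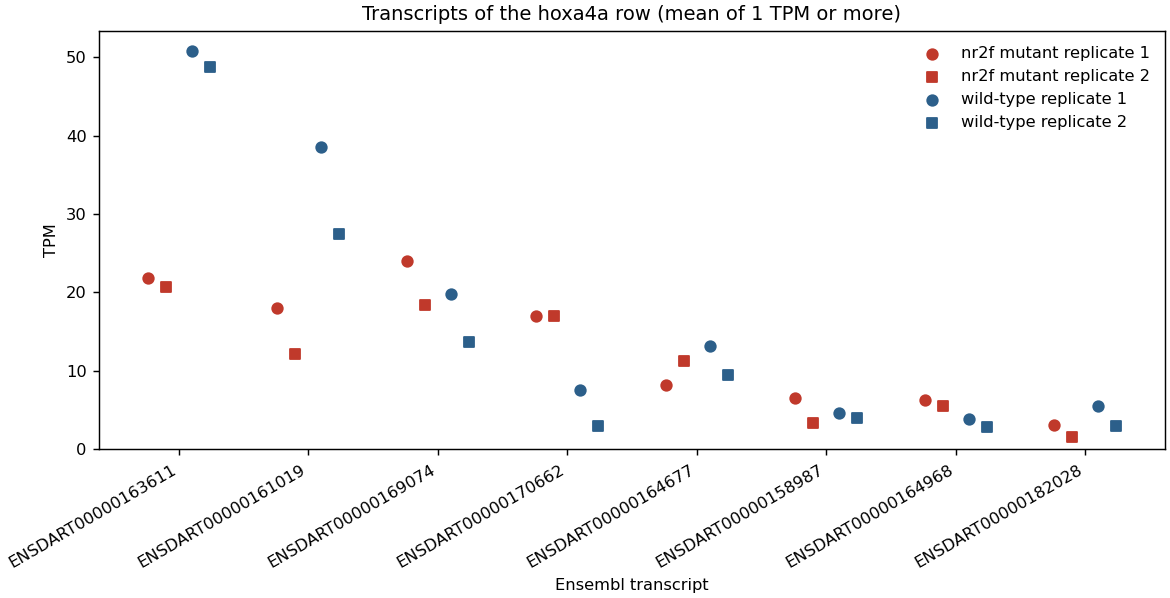
TPM (y axis) in each sample of the 8 transcripts of the hoxa4a row with a mean of 1 TPM or more (x axis, in order of mean); red points are nr2f mutant and blue points wild-type samples, circles replicate 1 and squares replicate 2. ENSDART00000163611 lies at 21.9 and 20.7 TPM in mutant samples and 50.8 and 48.7 TPM in wild-type samples, and ENSDART00000170662 at 17.0 and 17.1 TPM in mutant samples, against 7.54 and 3.04 TPM in wild-type samples.

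Groups 5 to 8 mark the vagal and trunk levels of the neural tube, somites and crest. One gene stood out by size, hoxb7a, the only member of group 7, at 86.4 and 49.9 TPM in mutant samples and 45.9 and 18.1 TPM in wild-type samples. Both mutant samples lay above both wild-type samples. The lower mutant value (49.9 TPM) was far nearer the higher wild-type value (45.9 TPM) than replicates of either genotype were to each other. The log2 fold change was 1.16 ± 0.52, the largest among the Hox genes, with a 95% interval from -0.20 to 2.51 (adjusted p = 0.30). It passed without wild-type replicate 1 (1.81, adjusted p = 0.014) while it was 0.51 without wild-type replicate 2 (adjusted p = 0.39) and 0.77 without mutant replicate 1 (adjusted p = 0.55). Its main transcript, ENSDART00000139334, stood at 52.3 and 30.6 TPM in mutant samples, against 26.3 and 10.1 TPM in wild-type samples, and did not pass either (adjusted p = 0.23).

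The other members of these groups stood lower and showed no shared direction. In group 5 the highest was hoxb5a, at 6.43 and 3.90 TPM in mutant samples and 7.18 and 7.05 TPM in wild-type samples (log2 fold change -0.43 ± 0.35, adjusted p = 0.51). In group 6 it was hoxb6a, at 13.9 and 10.2 TPM in mutant samples, against 14.8 and 10.05 TPM in wild-type samples, which overlapped. In group 8 it was hoxb8a, a trunk regulator, at 19.6 and 17.9 TPM in mutant samples, against 22.2 and 14.4 TPM in wild-type samples, which also overlapped. Groups that did not overlap were seen for hoxc6a and hoxc8a, with higher mutant values (log2 fold changes 0.50 and 0.61), and for hoxb5a, hoxc5a and hoxc6b, with lower ones (-0.43, -0.61 and -1.08). The remaining members, hoxa5a, hoxb5b, hoxb6b and hoxb8b, lay between 1.12 and 7.86 TPM in every sample and overlapped. None of the 12 genes of groups 5 to 8 passed, with adjusted p from 0.28 upward.

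Groups 9 to 13 mark the posterior trunk and tail, and the fin buds. They were present in the sorted cells, led by hoxb9a, at 45.7 and 26.0 TPM in mutant samples and 44.4 and 26.0 TPM in wild-type samples (log2 fold change 0.02 ± 0.33, 95% interval -0.72 to 0.76, adjusted p = 0.98). Its means were 35.8 TPM in mutant and 35.2 TPM in wild-type samples, so the replicates of either genotype lay far apart around nearly equal means. The next, hoxd9a, stood at 20.5 and 12.6 TPM in mutant samples, against 12.1 and 8.35 TPM in wild-type samples (log2 fold change 0.63 ± 0.33, adjusted p = 0.31). In group 10 hoxb10a stood at 13.8 and 8.63 TPM in mutant samples, against 9.21 and 4.96 TPM in wild-type samples, and in group 11 hoxa11b at 9.53 and 6.88 TPM in mutant samples, against 8.11 and 3.48 TPM in wild-type samples. Both overlapped and neither passed (adjusted p = 0.38 and 0.49).

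Levels were low toward the end of the clusters. In group 12 hoxd12a stood at 5.54 and 4.77 TPM in mutant samples, against 3.73 and 5.25 TPM in wild-type samples, and in group 13 hoxc13a at 3.14 and 1.31 TPM in mutant samples, against 3.27 and 1.92 TPM in wild-type samples. Both overlapped between the genotypes. The groups did not overlap for hoxd10a, at 6.27 and 4.88 TPM in mutant samples, against 3.41 and 3.86 TPM in wild-type samples, or for hoxc12a, at 4.11 and 2.55 TPM in mutant samples, against 5.25 and 4.90 TPM in wild-type samples, and neither passed (adjusted p = 0.44 and 0.45). The other tested members, hoxa9a, hoxa9b, hoxc9a, hoxa10b, hoxc10a, hoxa11a, hoxc11a and hoxd11a, overlapped, with log2 fold changes of -0.41 (hoxa9a) to 0.30 (hoxd11a). The 7 genes under the filter were all of groups 11 to 13: hoxc11b, hoxc12b, hoxa13a, hoxa13b, hoxb13a, hoxc13b and hoxd13a. Their means over the 4 samples were all under 1 TPM, and 3 of them (hoxc12b, hoxa13a and hoxb13a) were listed at 0 in at least 1 sample. They were not tested.

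Summed over paralog groups, groups 3 and 4 held the most TPM in every sample. The sum of group 2 was 78.4 and 70.1 TPM in mutant samples, against 47.3 and 46.7 TPM in wild-type samples, and the groups did not overlap (ratio of means 1.58). The sum of group 4 was 127 and 102 TPM in mutant samples, against 168 and 131 TPM in wild-type samples (ratio of means 0.767). Mutant samples lay above wild-type samples also for groups 3 and 7, and the genotypes overlapped for the other 9. With median-ratio scaling those of groups 1 (24.2 and 18.7 in mutant samples, 16.7 and 16.8 in wild-type samples), 8 (35.3 and 33.6 in mutant samples, 28.6 and 24.2 in wild-type samples) and 10 (29.1 and 18.7 in mutant samples, 17.3 and 13.9 in wild-type samples) no longer overlapped, nor did those of all Hox genes (714 and 566 in mutant samples, 550 and 459 in wild-type samples). With 2 samples a group an exact two-sided permutation test cannot give a p under 0.33, so the sums carry no test. Group 3 summed to 142 and 127 TPM in mutant samples, against 126 and 87.9 TPM in wild-type samples. If the hoxa4a row is counted there, the sums become 248 and 217 TPM in mutant samples and 270 and 200 TPM in wild-type samples, which overlap. Group 4 without this row summed to 21.6 and 11.8 TPM in mutant samples and 23.7 and 18.9 TPM in wild-type samples, which also overlap.

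Shares of all Hox TPM do not depend on a scaling by 1 factor per library. Group 2 took 11.1% and 13.4% of Hox TPM in mutant samples, against 7.58% and 10.2% in wild-type samples. Group 4 took 18.0% and 19.5% in mutant samples, against 26.9% and 28.6% in wild-type samples, and group 7 took 12.2% and 9.55% in mutant samples, against 7.37% and 3.94% in wild-type samples. In each of these the genotypes did not overlap, and group 4 showed the widest separation, 9.01 percentage points between the means. For group 3 the shares overlapped, at 20.1% and 24.3% in mutant samples and 20.2% and 19.1% in wild-type samples. The hoxa4a row, whose group is uncertain, held 85.6% of the mean group 4 sum. Shares with this row left out of group 4 or moved to group 3 were not computed, so the separation of group 4 rests on its name. By region, groups 1 to 4 made up 52.6% and 60.5% of Hox TPM in mutant samples and 57.8% and 61.6% in wild-type samples. Groups 5 to 8 made up 24.4% and 22.0% in mutant samples, against 21.0% and 17.8% in wild-type samples. The genotypes overlapped for groups 1 to 4 and 9 to 13 and not for groups 5 to 8.

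**Figure D4:**
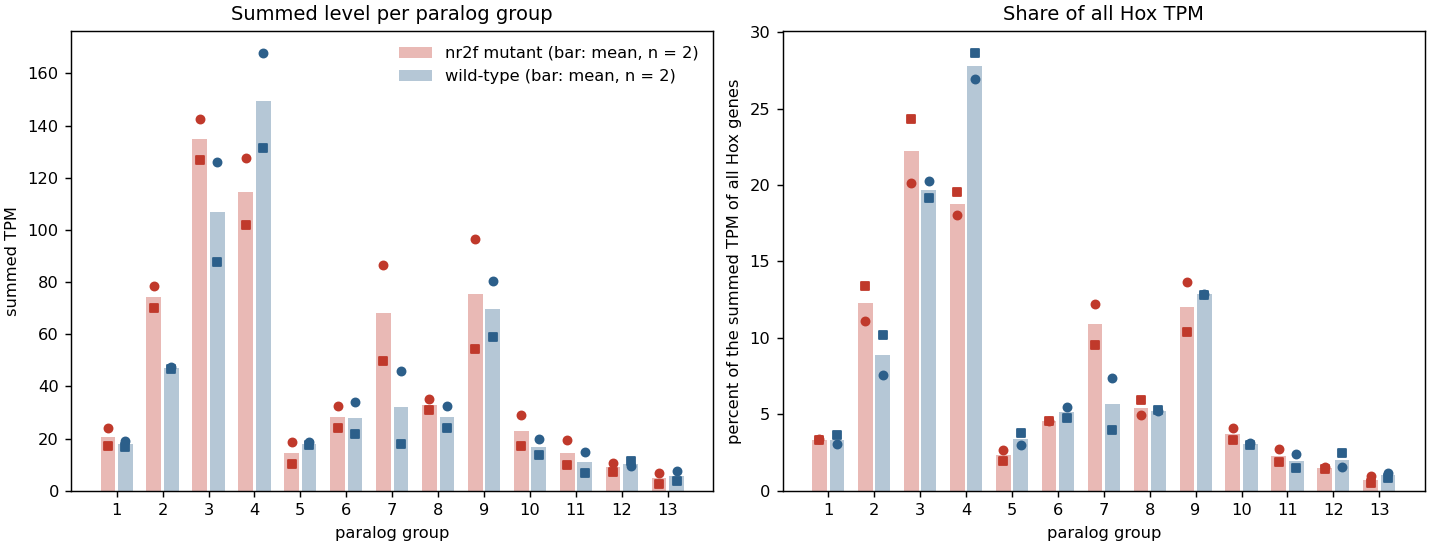
Summed TPM (left) and percent of all Hox TPM (right) of each paralog group (x axis) in nr2f mutant samples (red, left of each pair) and wild-type samples (blue); bars are means of 2 samples, circles replicate 1 and squares replicate 2. In both panels the mutant samples lie above the wild-type samples for groups 2 and 7 and below them for group 4. The shares of group 4 are 18.0% and 19.5% in mutant and 26.9% and 28.6% in wild-type samples. The hoxa4a row, whose group is uncertain, holds 85.6% of the mean group 4 sum.

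By cluster, the ba cluster led with 295 and 207 TPM in mutant samples and 230 and 145 TPM in wild-type samples, which overlapped. The ab cluster summed to 74.7 and 59.9 TPM in mutant samples, against 47.9 and 42.0 TPM in wild-type samples, with hoxa2b making up 69.7% of its mean. The aa cluster summed to 123 and 97.7 TPM in mutant samples, against 160 and 125 TPM in wild-type samples, and the hoxa4a row made up 89.5% of it. In both clusters 1 gene thus held most of the sum. The cb cluster was the lowest, at 4.59 and 1.26 TPM in mutant samples, against 6.91 and 5.15 TPM in wild-type samples. The ca, bb and da clusters overlapped between genotypes, and with median-ratio scaling the ba, ca and da clusters did not. Within the da cluster hoxd9a and hoxd10a, as well as hoxd3a, lay higher in both mutant samples without passing.

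Hox genes of high number differed widely between the replicates of 1 genotype. Mutant replicate 1 lay above mutant replicate 2 for 37 of the 41 genes, and for 27 of the 28 tested genes of groups 5 to 13; over all genes it did so for 59.1%. Wild-type replicate 1 lay above wild-type replicate 2 for 28 of 41, and for 19 of the 28 genes of groups 5 to 13 (67.9%). Over all genes it did so for 63.3%. For groups 9 to 13 the median absolute difference between the mutant replicates was 0.72 on the log2 scale and that between the wild-type replicates 0.45, beside 0.27 and 0.29 over all genes tested. In the same order, it was 0.38 and 0.67 for groups 5 to 8, and 0.20 and 0.18 for groups 1 to 4. The summed central nervous system markers also stood higher in replicate 1 of both genotypes (517 against 325 TPM in mutant, 449 against 313 TPM in wild-type samples), with 17 of 17 markers above 0 in every sample. Not every marker followed the sum. In the wild-type pair neurog1, neurod4, ascl1a, ascl1b and dlb went the other way, as did sox1a, neurod4 and dlb in the mutant pair. The other nervous system markers stood higher in replicate 1. Higher sums in replicate 1 of both genotypes were not particular to this list. Endothelial, endoderm and neural crest markers had them too, as did the caudal axis list (81.9 against 44.0 TPM in mutant, 38.6 against 20.9 TPM in wild-type samples). The sums of muscle, epidermis, otic and myeloid markers were not higher in replicate 1 of both genotypes. The part of any of these markers in the Hox values was not tested.

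RNA of several cofactors of Hox proteins, the Pbx, Meis and Prep homeodomain proteins that bind DNA with them, was abundant in all 4 samples. Other cofactors stood lower, down to pbx3a, which was at 0 in mutant replicate 1 and wild-type replicate 2. Of 12 tested, 0 passed by limma in either direction and 0 had an unadjusted p under 0.05, with a median log2 fold change of 0.01; over all genes 4.08% passed and 20.4% had such a p, so 0 passing of 12 is near the background. The most abundant were meis3, at 143 and 131 TPM in mutant samples, against 161 and 134 TPM in wild-type samples, and pbx4, the main hindbrain Pbx gene of zebrafish, at 123 and 96.4 TPM in mutant samples, against 165 and 123 TPM in wild-type samples. Both overlapped between the genotypes, since the lowest wild-type value of pbx4 lay just under the highest mutant value. Of 24 regulators of Hox chromatin (Polycomb, Trithorax and related genes), 0 passed and 4 had an unadjusted p under 0.05, or 16.7% beside 20.4% of all genes. Their median was -0.19, near the -0.16 of all genes. The 2 most abundant, the Polycomb gene eed (157 and 151 TPM in mutant, 147 and 152 TPM in wild-type samples) and ing5b (110 and 106 TPM in mutant, 88.9 and 119 TPM in wild-type samples), overlapped.

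Regulators that act upstream of Hox genes included called genes. The caudal-type gene cdx4, which activates trunk and posterior Hox genes, rose to 57.4 and 28.0 TPM in mutant samples, against 11.6 and 7.92 TPM in wild-type samples (log2 fold change 1.96 ± 0.35, adjusted p = 0.017). Leaving out mutant replicate 1 (adjusted p = 0.12) or wild-type replicate 2 (0.065) removed this call. Over all genes tested, 39.4% stood higher in replicate 1 than in replicate 2 of each genotype. Like 18 of the 28 tested Hox genes of groups 5 to 13, hoxb7a among them, cdx4 did so too. The part of cdx4 in these Hox values was not tested. In the caudal axis and posterior mesoderm list, cdx4 was the 1 gene called among 8 tested (1.13% of all genes were called higher). The median of that list was -0.08, and 5 of its 15 members were listed at 0 in some sample.

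Among 10 tested genes of rhombomere segmentation, 1 rose and 1 fell, where 1.13% of all genes were called higher and 2.95% lower. Log2 fold changes of this list were above 0 for 5 genes and below 0 for 5, with a median of 0.04. The gene egr2b, which marks rhombomeres 3 and 5 and activates Hox genes of group 2 there, rose to 23.3 and 16.8 TPM in mutant samples, against 5.57 and 2.56 TPM in wild-type samples (log2 fold change 2.10 ± 0.37, adjusted p = 0.014). Leaving out either mutant replicate removed the call (adjusted p = 0.13 and 0.094). The gene mafbb fell to 12.4 and 8.88 TPM in mutant samples, against 28.9 and 31.9 TPM in wild-type samples (log2 fold change -1.45 ± 0.27, adjusted p = 0.017). Its paralog mafba, the segmentation gene of rhombomeres 5 and 6, which activates group 3 genes, stood at 80.7 and 62.0 TPM in mutant samples, against 48.6 and 32.6 TPM in wild-type samples and did not pass (adjusted p = 0.086). The value of mafba lies outside the rule for named genes and was added after it was seen. For mafbb, leaving out 1 sample removed the call for mutant replicate 1 (adjusted p = 0.055), mutant replicate 2 (0.14) and wild-type replicate 2 (0.062). Macrophages also express mafbb, and the 7 myeloid markers in the table summed to 19.1 and 31.4 TPM in mutant samples, against 156 and 241 TPM in wild-type samples. Their part in the mafbb value was not tested.

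Retinoic acid, made by Aldh1a2 and removed by Cyp26 enzymes, switches on Hox genes of low number through its receptors. Of 18 tested genes of this list 1 fell and 0 rose, with a median log2 fold change of -0.56, and for 10 of them the mutant samples were both lower than either wild-type sample. Over all genes, 2.95% were called lower and 34.9% had both mutant values below. The receptor gene rarga fell to 48.2 and 63.9 TPM in mutant samples, against 112 and 126 TPM in wild-type samples (log2 fold change -1.08 ± 0.18, adjusted p = 0.012), a call lost without mutant replicate 1 (0.087). Of 11 tested genes of the Hox-free forebrain and midbrain territory, such as emx2 (13.5 and 21.0 TPM in mutant, 11.2 and 13.7 TPM in wild-type samples) and hesx1 (13.02 and 9.61 TPM in mutant, 16.0 and 14.9 TPM in wild-type samples), 0 passed and 0 had an unadjusted p under 0.05, beside 4.08% and 20.4% of all genes.

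**Figure D5:**
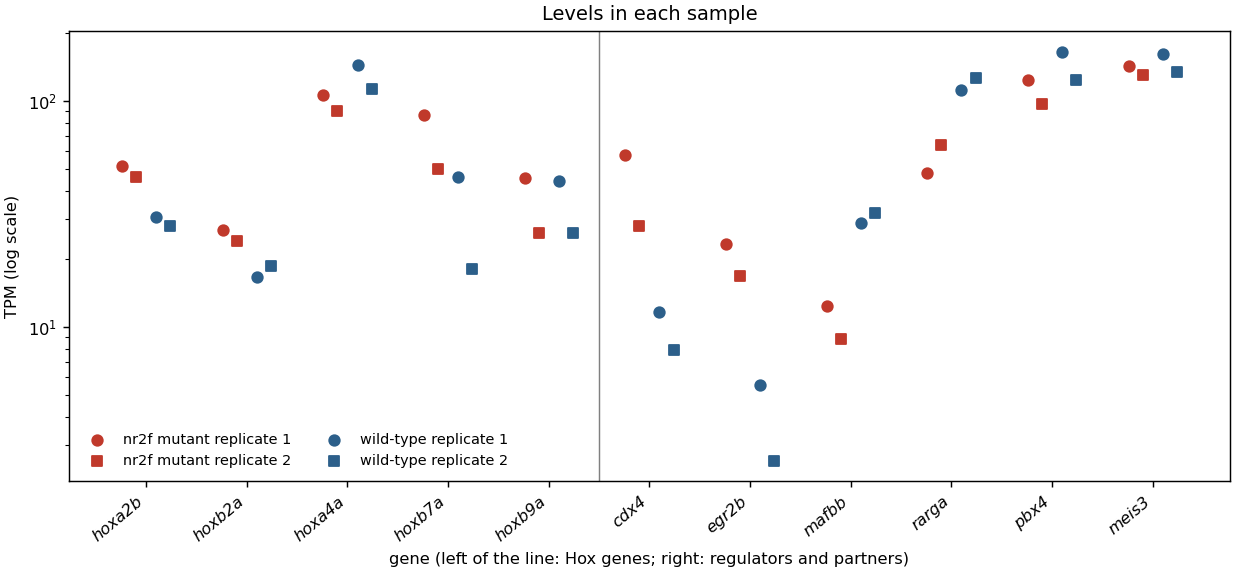
TPM (y axis, log scale) in each sample of 5 Hox genes (left of the line) and of 6 regulators and partners (right); red points are nr2f mutant and blue points wild-type samples, circles replicate 1 and squares replicate 2. The mutant samples lie above the wild-type samples for hoxa2b, hoxb2a, hoxb7a, cdx4 and egr2b and below them for hoxa4a, mafbb and rarga, while hoxb9a, pbx4 and meis3 overlap.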

How the data were processed

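The members and gene lists were chosen with earlier results of these data known. The authors deposited 1 table of TPM per Ensembl transcript; per the submitters' processing notes kallisto and the GRCz11 build were used, and versions, annotation release and strand handling are not given in the sources used here. Of 65905 transcripts 8130 had no value, and 0 value columns lacked a sample. TPM was summed per gene name (26267 genes), tested as log2(TPM + 1) with limma 3.58.1 in R 4.3.3 (trend and robust, statmod 1.5.0) for genes averaging at least 1 TPM, and adjusted by the Benjamini-Hochberg method. Tests are two-sided, errors are moderated standard errors (SE), and intervals cover 95%. Fold changes on this scale understate those of low genes. The procedure was run on data simulated with the spread that limma itself had fitted. Such a run cannot show whether that spread holds for these samples. Named were all Hox genes, with values per sample for the tested members of groups 1 to 4, the highest of each group and any called. Of other lists, up to 4 called genes were named, or the 2 highest. Other genes were added after their values were seen. Alternatives were pseudocounts of 0.1 and 5, other filters, 2 scalings, the replicate block, plain moderation, gene IDs, and leaving out each sample. No sequence table was used here.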

Additional observations from a re-analysis of the deposited data

How the results depend on the processing

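The count of Hox genes called higher was 0, and 1 with median-ratio scaling, quantile normalization (hoxa2b in both), the replicate block or without wild-type replicate 1 (hoxb7a in both). No Hox gene was called lower under any of the 13 alternatives. Calls over all genes numbered 580, against 4 with no filter on low values, 0 without trend and robust, and 110 to 647 when 1 sample was left out. The median of the tested Hox genes ran from -0.22 to 0.37 when 1 sample was left out. Without trend and robust, or with no filter, cdx4, egr2b, mafbb and rarga were not called either. The lower Hox transcript count of 1 was 0 with no filter, the replicate block, or without trend and robust, and 0 to 0 when any 1 sample was left out. The log2 ratio of the group 2 sum (0.66) was 0.81 with median-ratio scaling and 0.58 to 0.74 when 1 sample was left out. That of group 3 (0.33) was -0.016 with the hoxa4a row added and 0.094 to 0.62 when 1 sample was left out, and that of group 7 (1.09) was 0.57 to 1.91. Signs turned for genes near 0. With median-ratio scaling hoxb4a became 0.10, hoxb6a 0.11 and meis3 0.050, and with quantile normalization hoxc1a became 0.15, hoxb4a 0.32, hoxb6a 0.19 and hoxc13a 0.18. Leaving out 1 sample gave -0.82 to 1.26 for hoxb1a, -0.18 to 0.13 for hoxb4a, -0.99 to 0.39 for hoxd4a, -0.29 to 0.23 for hoxb6a, -0.24 to 0.35 for hoxb8a, -0.38 to 0.42 for hoxb9a, -0.026 to 0.38 for hoxd12a, -0.61 to 0.23 for hoxc13a, -0.23 to 0.026 for meis3 and -0.14 to 0.28 for ing5b. The cause of these changes was not tested. Across all genes tested, same-numbered samples did not deviate together (r = -0.012), and they share only a number. Of the Hox genes tested, 26 of 41 (63.4%) stood higher in replicate 1 of both genotypes, where 39.4% of all genes did so. The replicate block gave 565 calls over all genes, hoxb7a an adjusted p of 0.029 and ENSDART00000163611 one of 0.058. With no counts, the depth behind low genes is unknown.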
